A study of Sus scrofa domesticus with 4 samples.

Results

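The nuclear genes of the mitochondrial respiratory chain were followed in the anterior pituitary of gilts, young female pigs, in early pregnancy and in the estrous cycle. Members were all non-control probes whose RefSeq accession maps to a pig gene of complexes I to V or of cytochrome c, chosen by gene symbol and not by measured values. The rule found 80 of 43603 probes, for 21 of the 2459 genes that could be named. By complex these were 5 genes of complex I, 2 of complex II, 1 of complex III, 7 of complex IV, 5 of complex V (the ATP synthase) and CYCS, which encodes cytochrome c.

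The study compared 4 pregnant gilts, naturally bred and killed on days 12 to 13 of pregnancy, with 4 cyclic gilts killed on days 12 to 13 of the cycle. All were Large White x Polish Landrace animals of about 110 kg, and no drug, hormone or genetic change is named for any of them. A pregnant and a cyclic gilt were hybridised together on every one of the 4 two-colour arrays, so each probe gave up to 4 log2 ratios of pregnant over cyclic. A ratio above 0 means more transcript in the pregnant gilt. By the label of each sample, pregnant RNA carried the dye Cy3 on arrays 1 and 3 but Cy5 on the other two, whereas the text of the labelling protocol reads as Cy3 throughout. The sample labels were followed. In whole gland, fewer cells of a type and less RNA per cell cannot be told apart.

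The respiratory chain sits in the inner mitochondrial membrane. Complex I takes electrons from NADH and complex II (succinate dehydrogenase) from succinate, cytochrome c carries them from complex III to complex IV (cytochrome c oxidase), and the proton gradient so made drives the ATP synthase. Most subunits are encoded in the nucleus and a smaller set, none of which had a named probe here, in mitochondrial DNA. Hormone-secreting cells of the pituitary use ATP for hormone synthesis, granule traffic and ion pumping.

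Of all spots, 47.5% to 67.9% per array were well above background in Cy3 and 60.7% to 71.8% in Cy5, and 0 were saturated. Precision is limited by there being 4 arrays. The 12 listed markers of anterior pituitary endocrine cells, among them PRL, GH1 and POMC, were well above background in all 8 gilts. Their median log2 ratio was -0.11 with 9 of 12 negative, where 56.2% of all tested named genes were. PRL was at -0.89 (limma adjusted p = 0.235), with -1.75, 0.01, -1.42 and -0.41 on arrays 1 to 4. The 3 positive genes were POU1F1 at 0.46 (limma adjusted p = 0.235), GNRHR at 0.43 and POMC at 0.16. Markers of other cells were also present: all 4 stromal and all 3 endothelial genes on the array, 3 of 5 posterior lobe and neural genes and 3 of 4 leukocyte genes were well above background in the 8 gilts. Their median log2 ratios were -0.33, -0.23, -0.02 and -0.20. Of the 4 stromal genes 3 were lower at an unadjusted limma p under 0.05, where 8.43% of all tested named genes were. The other stromal gene, DCN, was at 0.22. The part of all these cells in the members' ratios was not tested. On array 4 a dim area covered 4250 spots, 12 of them of members. It holds the array 4 spots of 7 tested member probes, whose ratios there were kept. Spots flagged in the scanner files as non-uniform, as population outliers or manually concentrated among bright spots. In the brightest of 10 equal classes 30.9% of spots were flagged, and 57 of the 80 member spots lie in that class. Flagged spots were left out, which removed 16 to 24 member spots per array. A probe was tested if it was well above background on the 4 arrays in at least 1 group and had an unflagged spot on at least 3 arrays. Of the members, 52 probes of 15 genes were tested, 34 probes on 4 arrays and 18 on 3. Of the 28 others, 21 were flagged on at least 2 arrays and 7 failed the detection rule, 5 of these with their array 4 spot in the dim area. A gene is represented by its brightest tested probe unless other probes are named.

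No respiratory chain gene passed the test across the whole array. Of the 52 member probes, 0 had a limma adjusted p under 0.05, as did 0% of the 21627 probes tested. At an unadjusted limma p under 0.05 stood 8 member probes, 15.4% of those tested, against 18.1% of all tested probes. Of these, 3 were higher in pregnant gilts (5.77%, against 10.4% of all probes) and 5 lower (9.62%, against 7.62%). All members have a gene name, and named probes leaned the other way from all probes. Of the 3440 tested probes with a gene name, 130 were higher and 452 lower. The 8 belong to 4 genes: SDHD with 4 probes and CYCS with 1 had negative ratios, and COX7A2 with 2 and ATP5I with 1 had positive ratios. Probes of 1 gene measure the same transcript and are not independent.

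**Figure D1:**
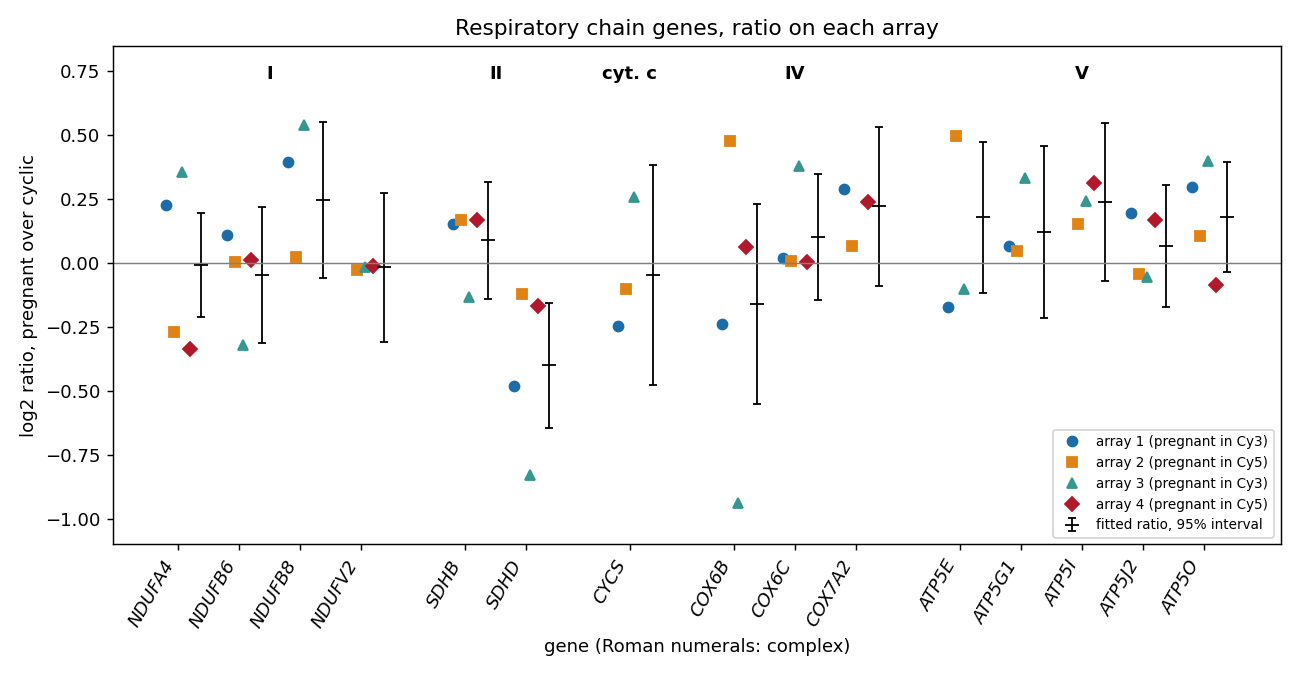
Log2 ratio of pregnant over cyclic (y axis) for the 15 tested respiratory chain genes (x axis), 1 point per array, with the fitted ratio and its 95% interval from limma in black. SDHD is the gene whose 4 points all lie below 0 and whose interval, -0.64 to -0.16, does not reach 0; the 5 ATP synthase genes have fitted ratios between 0.07 and 0.24.

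Differences were small. The fitted ratios of the 15 genes ran from -0.40 (SDHD) to 0.25 (NDUFB8), with a median of 0.09, where the 1744 tested named genes had a median of -0.02. Of the 15 genes, 9 had a positive ratio (60%, against 43.8% of all named genes) and 6 a negative one (40%, against 56.2%). SDHD alone among the 15 stood at an unadjusted limma p under 0.05 (6.67%, against 13.8% of named genes). Over the 52 probes 26 ratios were positive (50%, against 53.1% of all probes). Of the 3440 tested probes with a gene name, 1264 were positive and 2176 negative. The 95% intervals of the 15 brightest probes lie between a fold of 0.64 and one of 1.47. Those of other member probes reach further, on the log2 scale from -1.03 to 0.95 for the CYCS probe A_72_P592869 and from -0.20 to 1.16 for the ATP5E probe A_72_P188901. In simulated data, 2.8% of probes changed 1.5-fold and 60.8% of those changed 2-fold were called at a limma adjusted p under 0.05. Of the unchanged simulated probes 5.02% stood at an unadjusted limma p under 0.05, against 18.1% of all probes tested in the measured data. Whether the simulation carries the spread of the measured arrays was not tested, so the 2.8% and 60.8% need not hold for them.

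The lowest fitted ratio was in complex II. SDHD (NM_001097516), a membrane anchor subunit of succinate dehydrogenase, had log2 ratios of -0.48, -0.12, -0.83 and -0.17 on arrays 1 to 4. All 4 lay below 0, and arrays 1 and 3, the arrays with pregnant RNA in Cy3, were the lowest. The fitted ratio was -0.40 ± 0.33 (SD, n = 4), 1.32-fold lower in pregnant gilts, with an unadjusted p of 0.00865 and an adjusted p of 0.235 in limma. As log2 spot intensity, the pregnant gilts of arrays 1 to 4 had 10.66, 10.61, 10.11 and 11.87 and the cyclic gilts 11.14, 10.73, 10.94 and 12.04. Each pregnant gilt was below the cyclic gilt of her own array, but the groups overlap, since both gilts of array 4 read higher than the rest.

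Of the 5 tested SDHD probes 4 had negative ratios, from -0.40 to -0.26, and each of these 4 was below 0 on every array. The fifth, A_72_P440211, gave 0.43, -0.15 and 0.12 on arrays 1 to 3, its spot on array 4 being flagged, and a fitted ratio of 0.06. The probes of this gene therefore disagree in sign, and the files used here do not give the part of the transcript each one reads.

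SDHB (NM_001104953), the iron-sulphur subunit, was represented by a probe with 0.15, 0.17, -0.13 and 0.17 on arrays 1 to 4 and a fitted ratio of 0.09 ± 0.15 (SD, n = 4; limma adjusted p = 0.62). Here array 3 stood apart on the negative side. The other 5 tested SDHB probes had negative ratios, from -0.28 to -0.09, so the brightest probe is the exception for this gene. Averaged over its 6 tested probes, SDHB had -0.08, -0.04, -0.38 and -0.02 on arrays 1 to 4. For SDHD the averages over 5 probes were -0.22, -0.14, -0.54 and -0.12. For both genes array 3 held the lowest value and arrays 2 and 4 lay nearest to 0. Over all 11 tested probes of complex II, 9 ratios were negative, with a median of -0.22.

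**Figure D2:**
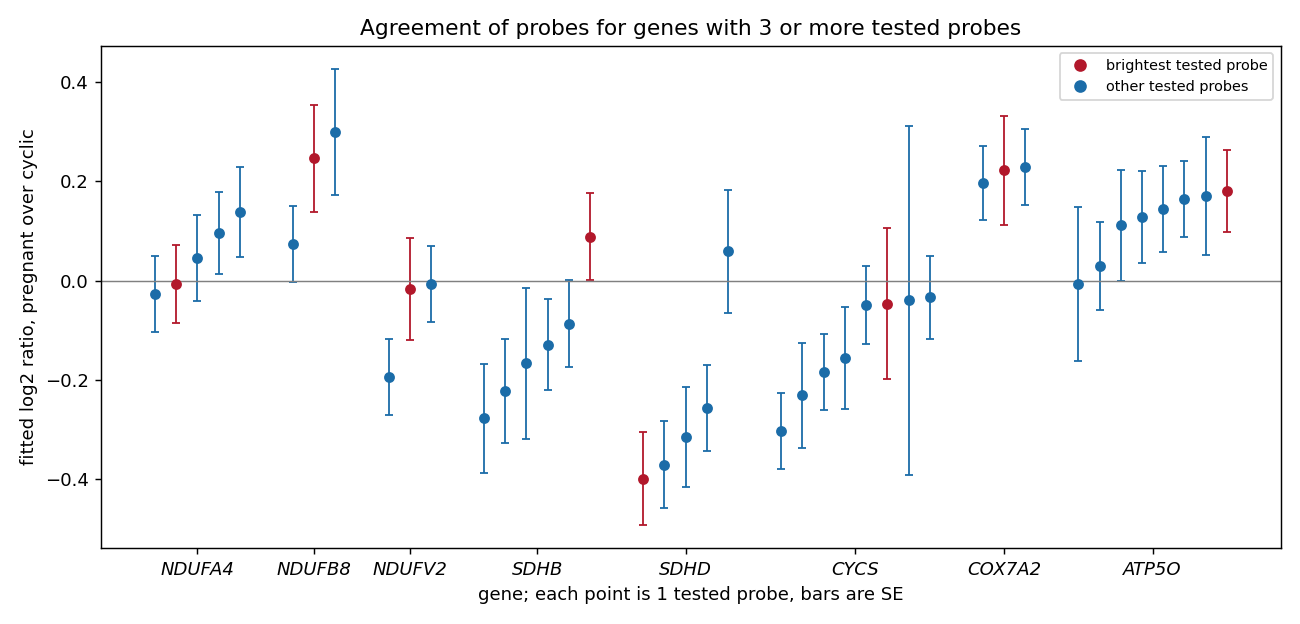
Fitted log2 ratio of pregnant over cyclic (y axis) for each tested probe of the 8 genes with at least 3 tested probes (x axis), with SE bars; the brightest probe of each gene is in red. Probes of NDUFB8, NDUFV2, COX7A2 and CYCS lie on 1 side of 0 (CYCS from -0.30 to -0.03), while SDHD and SDHB each have 1 probe above 0 and ATP5O has 1 at -0.01.

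In complex I, NDUFB8 (NM_001144842), an accessory subunit of the membrane arm, had the highest ratio among the brightest probes of the 15 genes. By the mean of their probes ATP5E (0.33), ATP5I (0.27) and COX7A2 (0.22) were above NDUFB8 (0.21). The brightest NDUFB8 probe gave 0.39, 0.03 and 0.54 on arrays 1 to 3, with its array 4 spot flagged, and a fitted 0.25 ± 0.26 (SD, n = 3; limma adjusted p = 0.327). With 3 arrays, array 2 stands alone in its dye orientation and weighs most in the fit, which is why the fitted value is not the plain mean. Its 3 tested probes were all positive, from 0.07 to 0.30. The only tested NDUFB8 probe with an unflagged array 4 spot gave -0.03 there.

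NDUFB6 (NM_001044554), another membrane arm subunit, had 0.11, 0.01, -0.32 and 0.01 on arrays 1 to 4 and a fitted -0.05 ± 0.19 (SD, n = 4; limma adjusted p = 0.834). Only array 3 was clearly away from 0. NDUFV2 (NM_001097475), an iron-sulphur subunit of the part that binds NADH, had -0.03, -0.01 and -0.01 on arrays 2 to 4, a fitted -0.02 ± 0.01 (SD, n = 3). Its 3 probes were negative, down to -0.19. For NDUFV2 the spread of these 3 arrays is the narrowest among the 15 genes.

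NDUFA4 (NM_001097468) was first described in complex I and is now also counted as a subunit of cytochrome c oxidase. Its ratios were 0.23, -0.27, 0.36 and -0.33 on arrays 1 to 4, and the fitted ratio was -0.01 ± 0.35 (SD, n = 4; limma adjusted p = 0.976). The sign followed the dye orientation, positive where pregnant RNA was in Cy3 and negative where it was in Cy5. The same division held for the 5 tested NDUFA4 probes, all positive on arrays 1 and 3 and negative on array 2, with 1 of 5 above 0 on array 4. That probe, A_72_P594274, was at 0.04 there, and its array 4 spot lies in the dim area. The fit takes this as a dye effect of -0.30. Since the 2 dye orientations were run on different gilts, a dye effect and a difference between gilts cannot be told apart.

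Such a division was common among members. Of 34 member probes with a ratio on 4 arrays, 13 had their higher pair of ratios where pregnant RNA was in Cy3 (38.2%, against 21.7% of all probes), and 11 the reverse (32.4%, against 23.6%). The first kind held the 5 NDUFA4 probes, 2 each of COX7A2 and ATP5O and 1 each of COX6C, CYCS, NDUFB8 and NDUFV2. The second held 4 of SDHD, 3 of SDHB, 2 of CYCS and 1 each of COX6B and NDUFV2. Some of these probes have their array 4 spot in the dim area. Of the first kind they are A_72_P594274 (NDUFA4), A_72_P554666 (ATP5O), A_72_P177916 (COX6C), A_72_P445038 (COX7A2) and A_72_P008021 (NDUFV2). Of the second kind it is A_72_P617548 (NDUFV2). On array 4 each of them read lower in both gilts than on the other arrays. A probe negative on 4 of 4 arrays was found 8 times (23.5%, against 11.3% of all probes): 4 for SDHD, 2 for CYCS, 1 for NDUFB6 and 1 for NDUFV2. A probe positive on 4 of 4 arrays was found 2 times (5.88%, against 14.6%), once for COX6C and once for ATP5O. As log2 intensities, 0 of the 34 probes had the 4 pregnant gilts all above the 4 cyclic gilts (2.08% of all probes) and 0 all below (0.91%).

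Complex III was present only as UQCR10, a small subunit with 1 probe, which was flagged on 3 arrays and was not tested. Cytochrome c (CYCS, NM_001129970), the mobile electron carrier that also takes part in cell death, was read by 12 probes. The brightest of its 8 tested probes gave -0.25, -0.10 and 0.26 on arrays 1 to 3 and a fitted -0.05 ± 0.26 (SD, n = 3; limma adjusted p = 0.899). All 8 tested probes had negative fitted ratios, with a mean of -0.13. The lowest, A_72_P616319, was -0.35, -0.24, -0.43 and -0.19 on arrays 1 to 4 and -0.30 ± 0.11 in the fit (SD, n = 4; unadjusted p = 0.0115, limma adjusted p = 0.235). Its 4 values stay on the negative side and within a narrow range. Another probe, A_72_P592869, ran from 0.76 on array 1 to -0.76 on array 3. CYCS has processed copies in mammalian genomes, so which loci its probes read is uncertain.

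In complex IV 3 of 7 genes were tested. COX7A2 (NM_001097484), the isoform of subunit VIIa found in most tissues, had 0.29, 0.07 and 0.24 on arrays 1, 2 and 4 and a fitted 0.22 ± 0.12 (SD, n = 3; limma adjusted p = 0.367). These values are all positive, and so are its 3 fitted probe ratios, from 0.20 to 0.23. Averaged over the 3 probes, COX7A2 had 0.38, 0.02, 0.39 and 0.11 on arrays 1 to 4, so arrays 1 and 3 stood above arrays 2 and 4. COX6C (NM_001097473), a small membrane subunit, had 0.02, 0.01, 0.38 and 0.01, and its fitted 0.10 ± 0.18 (SD, n = 4; limma adjusted p = 0.589) comes mainly from array 3. Both tested COX6C probes have their array 4 spot in the dim area. COX6B (NM_001097497), a subunit on the intermembrane side, varied most between arrays: -0.24, 0.48, -0.94 and 0.06, a fitted -0.16 ± 0.60 (SD, n = 4; limma adjusted p = 0.607). Its sign followed the dye orientation in the direction opposite to NDUFA4. A brighter COX6B probe, A_72_P507113, was flagged on 3 arrays; with flagged spots kept it gave 0.20, -0.04, 0.59 and -0.19 on arrays 1 to 4 and a fitted 0.14, so the probes of this gene have opposite signs.

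The other 4 genes of complex IV had no tested probe. COX7C (3 probes) and 2 of 3 probes of COX5B were flagged on at least 2 arrays. The heart and muscle isoforms failed the detection rule. COX8H, the heart isoform of subunit VIII, was well above background in 0 of 8 gilts on both of its probes. COX7A1, the heart and muscle isoform of subunit VIIa, was well above background in 6 of 8 gilts, its array 4 spot lying in the dim area. Its log2 ratios were 0.57, 0.01, 1.03 and -0.22 on arrays 1 to 4. Of the 5 muscle markers on the array, COX7A1 among them, MYH7, ACTA1 and CKM were well above background in the 8 gilts, with fitted log2 ratios of 0.32, -0.31 and 0.09, and TNNC1 in 2 gilts. Their part in the ratio of COX7A1 was not tested. ACTA1 shares long stretches with other actins, which its probes may read.

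**Figure D3:**
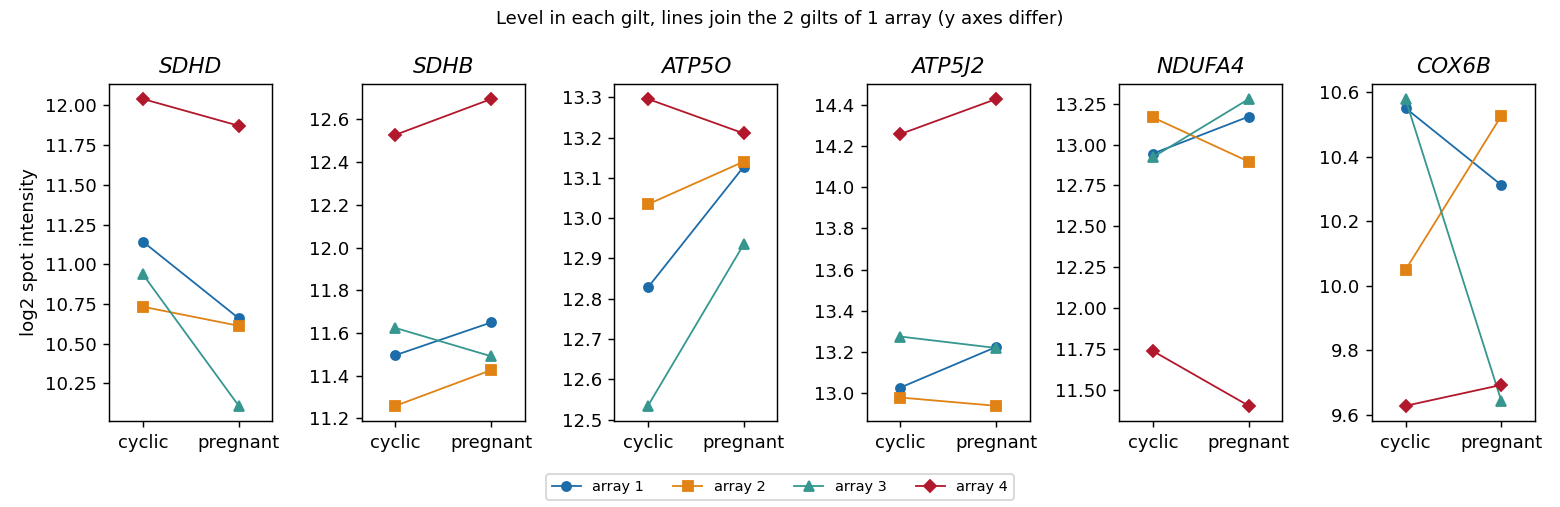
Log2 spot intensity (y axis) of the representative probe of 6 genes in the cyclic and the pregnant gilt of each array; a line joins the 2 gilts of 1 array and each panel has its own y axis. All 4 lines fall for SDHD, whereas for SDHB, ATP5O, ATP5J2, NDUFA4 and COX6B the lines go both ways, and on array 4 both gilts read higher than the rest for SDHD, SDHB, ATP5O and ATP5J2 and lower for NDUFA4.

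In the ATP synthase all 5 genes had positive fitted ratios. ATP5I (NM_213915), subunit e of the membrane part, had 0.15, 0.24 and 0.32 on arrays 2 to 4, with array 1 flagged, and a fitted 0.24 ± 0.08 (SD, n = 3; limma adjusted p = 0.339). Its second probe gave 0.18, 0.40 and 0.27 on the same arrays and 0.31 ± 0.11 in the fit (SD, n = 3; unadjusted p = 0.0441, limma adjusted p = 0.267). All 6 values of ATP5I were positive. ATP5O (NM_001044606), which joins the catalytic head to the outer stalk, had 0.30, 0.11, 0.40 and -0.09 on arrays 1 to 4 and a fitted 0.18 ± 0.22 (SD, n = 4; limma adjusted p = 0.322).

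ATP5O was read by 10 probes, of which 8 were tested and 7 had positive fitted ratios, from 0.03 to 0.18, the eighth being at -0.01. Averaged over the 8 probes, the gene had 0.20, 0.18, 0.22 and -0.08 on arrays 1 to 4. On arrays 1 and 2 all of its tested probes with a ratio were positive, and on array 4 7 of 8 were negative. Array 4 thus went against the other arrays for this gene on nearly every probe, which the SE of a single probe does not show.

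ATP5E (NM_001113448), the epsilon subunit of the catalytic part, had -0.17, 0.50 and -0.10 on arrays 1 to 3 and a fitted 0.18 ± 0.37 (SD, n = 3; limma adjusted p = 0.426). Although the fit is positive, 2 of the 3 values are negative. Its second probe, A_72_P188901, ran from -0.35 on array 1 to 1.19 on array 3 and had a fitted 0.48 ± 0.64 (SD, n = 4; limma adjusted p = 0.386), the highest of the 52 member probes. ATP5G1 (NM_001025218), 1 of several genes for the proton-carrying ring, had 0.07, 0.05 and 0.33 on arrays 1 to 3 and a fitted 0.12 ± 0.16 (SD, n = 3; limma adjusted p = 0.62). ATP5J2 (NM_001097464), subunit f of the membrane part, had 0.20, -0.04, -0.06 and 0.17 on arrays 1 to 4, a fitted 0.07 ± 0.13 (SD, n = 4; limma adjusted p = 0.727), with its signs split.

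Set side by side, the complexes had mean fitted ratios of 0.04 for complex I (4 genes), -0.16 for complex II (2 genes), 0.06 for complex IV (3 genes) and 0.16 for complex V (5 genes). The mean of the 1744 named genes was -0.03. Complex V had positive means on each array, 0.10, 0.15, 0.16 and 0.13 on arrays 1 to 4. Complex II had -0.16, 0.02, -0.48 and -0.00. The mean of complex I split by dye orientation, with 0.24 and 0.14 where pregnant RNA was in Cy3, and -0.07 and -0.11 where it was in Cy5. Among its genes, NDUFA4 and NDUFB8 were higher on arrays 1 and 3 than on array 2. NDUFB6 was lowest on array 3, at -0.32, and NDUFV2 was at -0.03 to -0.01 on arrays 2 to 4. Complex IV had 0.02, 0.19, -0.28 and 0.10.

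The difference of complex V minus complex II was 0.26, 0.13, 0.64 and 0.13 on arrays 1 to 4, a mean of 0.29 ± 0.24 (SD, n = 4), positive each time. That of complex IV minus complex II was 0.19, 0.16, 0.20 and 0.10. Complex I minus complex II changed sign, with 0.41, -0.09, 0.62 and -0.11, so complex I was the lower of the pair on arrays 2 and 4. The difference of complex V minus complex I also changed sign, with -0.15 on array 1 and 0.24 on array 4, as did that of complex V minus complex IV. These are descriptions of 2 to 5 genes per complex, with no test over them, and the genes measured differ between arrays because of the flagged spots. With flagged spots kept, so that each array has the same genes, complex V minus complex II was 0.26, 0.13, 0.64 and 0.02.

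**Figure D4:**
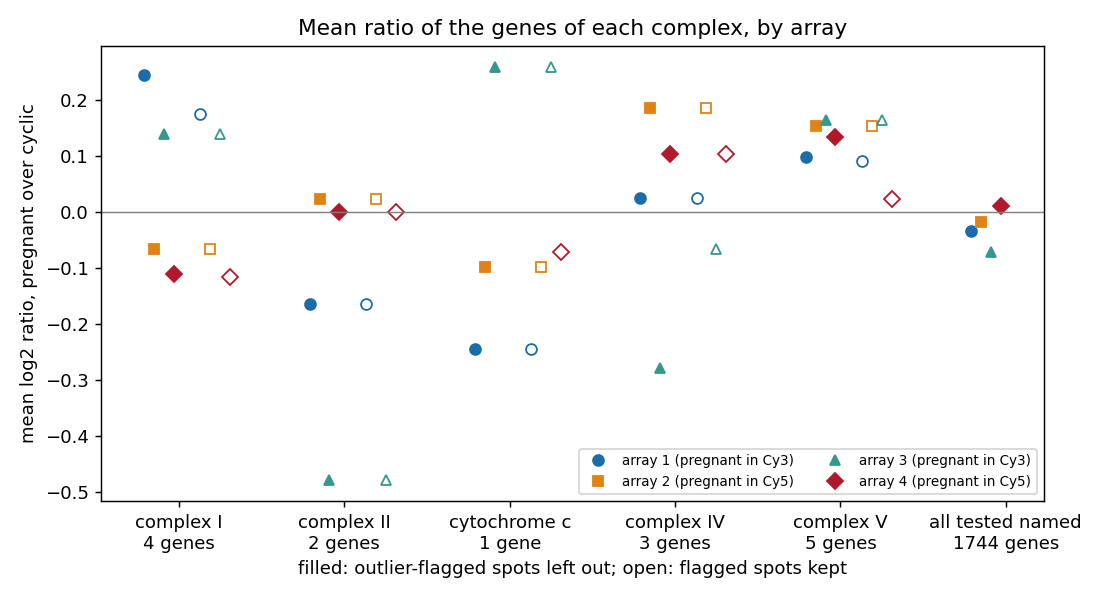
Mean log2 ratio of pregnant over cyclic (y axis) of the tested genes of each complex (x axis), 1 point per array, with outlier-flagged spots left out (filled) or kept (open). Complex V is above 0 on the 4 arrays either way, complex II is lowest on array 3 at -0.48, and complex I is above 0 on arrays 1 and 3 only.

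Keeping the flagged spots, a choice made after seeing the data, brought 4 more genes into the fit. COX5B, a zinc-binding subunit of complex IV, was then at 0.16 ± 0.12 (SD, n = 4), with every array above 0. NDUFC1 of complex I had -0.14 ± 0.03 (SD, n = 4), negative on the 4 arrays. UQCR10 had 0.07 ± 0.22 and COX7C -0.07 ± 0.51, both with mixed signs. None of these 4 passed, at limma adjusted p between 0.373 and 0.882. In that fit all 10 probes of ATP5O were positive, and 13 of 19 member genes had a positive ratio. Counted by probe and not by gene, 52.8% of all tested probes did. With flagged spots left out, 43.8% of named genes had a positive ratio. All 5 genes of complex V stayed positive, but ATP5E and ATP5G1 came nearer to 0. ATP5E was at 0.03, with 0.50 on array 2 and negative values on arrays 1, 3 and 4. ATP5G1 was at 0.07, with -0.18 on array 4.

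Other mitochondrial genes came from 9 lists chosen for their role. Of 45 genes on the array, none of them a member, 37 were tested: 8 had positive and 29 negative ratios, with a median of -0.14. All tested named genes also leaned this way, with 56.2% negative and a median of -0.02. By limma 0 passed the adjusted threshold, and at an unadjusted p under 0.05 there were 0 higher and 4 lower, where 5.39% and 8.43% of all named genes stood. All 7 tested genes of fatty acid oxidation had negative ratios, with a median of -0.24. HADH, a dehydrogenase of that pathway, had -0.25, -0.26, -0.39 and -0.14 on arrays 1 to 4, a fitted -0.26 ± 0.10 (SD, n = 4; limma adjusted p = 0.245). Of 12 tested genes of the tricarboxylic acid cycle and pyruvate entry 9 were negative, with a median of -0.03. The malate dehydrogenase gene MDH1, whose enzyme is the cytosolic one of the malate shuttle, had -0.26 ± 0.10 (SD, n = 4; limma adjusted p = 0.247) and was negative on the 4 arrays.

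Of 7 genes for exchange, uncoupling and membrane channels 6 were negative, with a median of -0.19. VDAC2, a channel of the outer membrane, had -0.29 ± 0.27 (SD, n = 4; limma adjusted p = 0.271), lowest at -0.68 on array 3. Both tested genes of protein import were negative, among them the receptor TOMM20 at -0.29 ± 0.35 (SD, n = 4; limma adjusted p = 0.264), again lowest on array 3 at -0.79. Both genes were negative on the 4 arrays, but the size of their ratios changed with the array left out. VDAC2 was -0.40 without array 1 (limma adjusted p = 0.042) and -0.17 without array 3. TOMM20 was -0.41 (limma adjusted p = 0.037) and -0.18, and -0.13 as the mean of its probes. Without array 1, array 3 weighs most in the fit, and 16.7% of 20323 probes had a limma adjusted p under 0.05. The ribosomal gene MRPS18B had -0.19 ± 0.07 and was negative on the 4 arrays. With the dyes read as Cy3 for pregnant RNA throughout, HADH was -0.061, MDH1 -0.0053 and MRPS18B -0.032. With median centring HADH was -0.13, MDH1 -0.075 and MRPS18B -0.090. Of 5 tested genes of mitochondrial biogenesis 3 were positive, with SIRT1 at -0.14 ± 0.15 (SD, n = 3), and of 3 antioxidant genes 2 were negative, with CAT, whose enzyme is mainly peroxisomal, at -0.33 ± 0.42 (SD, n = 3). The assembly list had 1 gene on the array and 0 tested, and the list of genes of mitochondrial DNA had 0.

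The values of the members depended on the processing and on single arrays. Without array 1 the median ratio of the member genes was 0.011 in place of 0.09. Without array 2 or array 4 the member probes at an unadjusted limma p under 0.05 were 0 (of 35 and of 43) in place of 8. The whole array fell too, from 3904 of 21627 probes to 894 of 20256 without array 2 and 1714 of 20620 without array 4. The mean of complex II was -0.076 without array 3 and -0.23 without array 1. With the dyes read as in the protocol text (pregnant in Cy3 on every array, no dye effect), the mean of complex V was -0.01 and that of complex II -0.17. With median centring in place of loess (a curve fitted to intensity), bright probes shifted upwards: the median of the brightest 2163 tested probes went from 0.02 to 0.18 and the mean of complex V from 0.16 to 0.36, while that of complex II came to 0.00. Of all probes at an unadjusted limma p under 0.05, 57.8% were higher in pregnant gilts after loess and 82.2% after median centring. SDHD was negative under all 16 alternatives, from -0.49 to -0.25. A constant sign was not particular to it: ATP5O, COX6C and ATP5J2 were positive under all 16. NDUFB8 and ATP5G1 were positive under all 12 that gave them a value. The alternatives reuse the same 4 arrays.

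**Figure D5:**
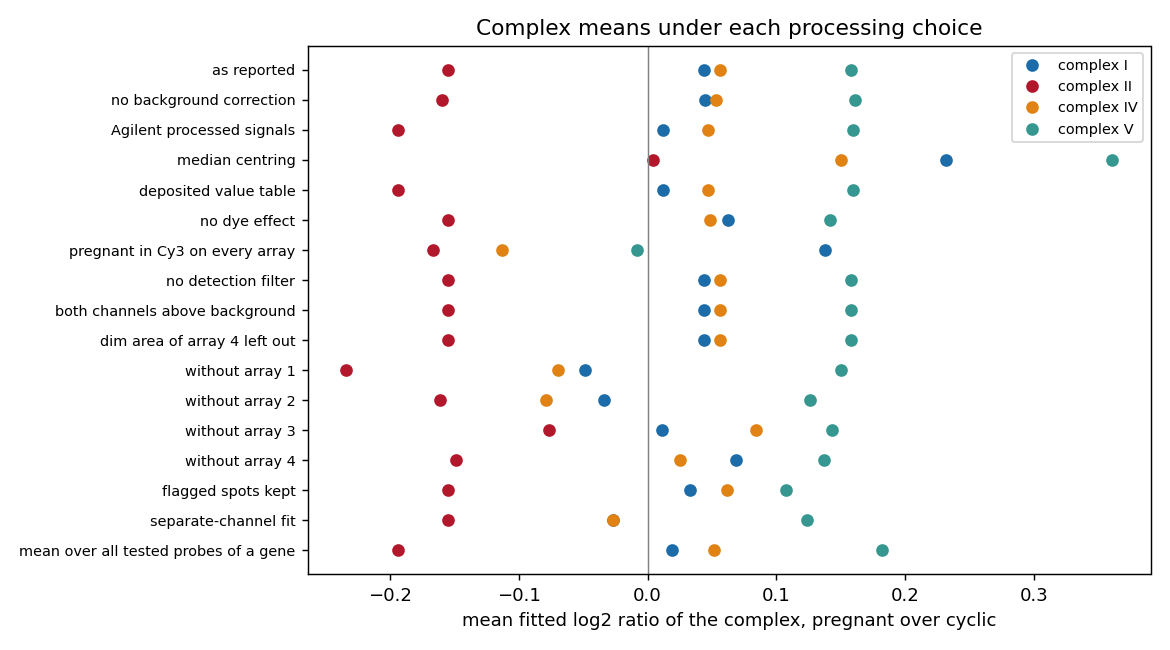
Mean fitted log2 ratio of complexes I, II, IV and V (x axis) as reported and under each other processing choice (y axis). Complex II lies below 0 except with median centring (0.00), and complex V lies above 0 except with pregnant RNA read as Cy3 on every array (-0.01).

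Without array 1, limma called 5 of 40 member probes at an adjusted p under 0.05 (12.5%, against 16.7% of 20323 probes). They were 3 of SDHD at -0.49 to -0.42, 1 of SDHB at -0.40 and 1 of ATP5E at 0.86. Array 3 is then the only array with pregnant RNA in Cy3 and weighs most in the fit. On array 3 these SDHD probes were at -0.83 to -0.67, the SDHB probe at -0.77 and the ATP5E probe at 1.19. When the 8 gilts were fitted as single channels, 1 of 34 was called (2.94%, against 5.14% of 19880 probes, and 0 against 3.19% among those higher), the SDHD probe A_72_P630935 at -0.37 with a limma adjusted p of 0.0471. The 4 values of that probe were -0.39, -0.22, -0.67 and -0.20 on arrays 1 to 4.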

How the data were processed

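The deposited scanner files hold, per the file headers, the median intensity of each spot and its local background in both dyes, from Agilent Feature Extraction 10.7.3.1 (array design 026440), with flags, and processed intensity, background-subtracted and dye-normalised. The deposited value table holds log2 ratios: set against log2 of processed Cy5 over Cy3, turned by the sample labels, its columns had a slope of 1 over 43603 probes. Its medians, 0.07, -0.08, -0.18 and -0.17, show that it is not centred; the tool that made it is not given in these sources. All 4 arrays lie on 1 slide, and 825 ng of labelled cRNA was used per dye, per the labels' protocols.

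Here, normexp (offset 50), loess within arrays with weight 0 for control spots, averaging of spots of a probe, and limma 3.58.1 in R 4.3.3 (lmFit, eBayes) with a group and a dye term were used, with Benjamini-Hochberg adjustment over 21627 probes. After ±, SD over arrays; tests are 2-sided. Levels per gilt are log2 intensities after Aquantile scaling between arrays. Genes were named through NCBI's table for Sscrofa11.1 by accession (5578 probes); its coordinates were not used, as the files name no build. The fit was tested on simulated data in 10 runs. Members and lists were chosen with earlier results of these data known. By rule, every tested member is named, array values go to the up to 3 genes of a complex with the smallest p and to those whose probes disagree in sign, and up to 3 genes of each list are named by p. Array values of the remaining members, the single probes named and the flagged COX6B probe were chosen after their values were seen. The alternatives were other background corrections and normalisations, the deposited table, the dye term, the dye assignment, detection filters, the dim area, each array left out, a separate-channel fit, the probe mean and, added after seeing the data, flagged spots kept and NDUFA4 placed in complex IV. The dim area was drawn from array 4 itself, as blocks (10 rows, 5 columns) in which 25% or more of otherwise bright spots fell to background.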

Additional observations from a re-analysis of the deposited data

Results flagged for a closer look

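Among 33 sets of 4 (ratios over arrays, or levels over gilts of a group), Dixon's ratio set 1 value apart in 6, and chance does so in about 5% of sets. The log2 ratio of COX6C was 0.38 on array 3, against 0.01 to 0.02 on the others. That of SDHB was -0.13 on array 3, against 0.15 to 0.17. The other 4 are log2 intensities on array 4. COX6C read 10.61 in the pregnant and 10.60 in the cyclic gilt there, against 14.24 to 14.52 and 14.14 to 14.43, and its spot lies in the dim area. In the cyclic gilt of array 4 NDUFA4 read 11.74, against 12.92 to 13.17, and NDUFB6 12.33, against 11.40 to 11.51; neither spot lies in that area. The causes were not tested.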

How the results depend on the processing

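Of 212 values of member genes under the alternatives, 195 kept their sign and 17 did not. With pregnant RNA read as Cy3 throughout, the signs turned for NDUFA4 (0.30), NDUFV2 (0.0080), SDHB (-0.079), CYCS (0.038), COX7A2 (-0.0049), ATP5E (-0.26), ATP5I (-0.075) and, outside the members, CAT (0.14). With median centring they turned for NDUFA4 (0.13), NDUFB6 (0.12), NDUFV2 (0.28), CYCS (0.11) and SIRT1 (0.080). The mean over all tested probes turned NDUFA4 to 0.049 and SDHB to -0.13. Leaving out an array gave NDUFA4 -0.038 to 0.026 (positive without array 1 or 4), NDUFB6 -0.16 to 0.061 and COX6B -0.33 to 0.016 (both positive without array 3).

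The limma count of all probes at an adjusted p under 0.05 was 0, and became 1 without background correction, 2 without the dye term, 0 to 3401 on leaving out an array (the highest without array 1) and 1021 in the separate-channel fit. At an unadjusted p it was 3904, and 2555 with median centring, 1012 with Cy3 throughout and 894 to 6858 on leaving out an array. Member probes at an adjusted p were 0, and 0 to 5 on leaving out an array and 1 in the separate-channel fit. At an unadjusted p they were 8, and 5 without background correction, 3 with processed signals, 3 with the deposited table, 4 with median centring and 4 with Cy3 throughout. Over all 21627 probes there were 4081 without background correction, and 4079 with processed signals and with the deposited table. Without the detection filter 18 of 59 member probes stood there, against 5844 of all 41316 probes. With flagged spots kept it was 15 of 73, against 4488 of 23913. Leaving out an array gave 0 to 12 member probes. Without array 1 these were 12 of 40, against 6858 of 20323 probes, and without array 2 they were 0 of 35, against 894 of 20256. Member genes were 1, and 2 with Cy3 throughout, 4 without the detection filter, 2 with flagged spots kept, 2 in the separate-channel fit and 0 to 3 on leaving out an array.

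The median ratio of member genes, 0.09, became 0.26 with median centring, 0.0029 with Cy3 throughout, 0.031 in the separate-channel fit and 0.011 to 0.061 on leaving out an array. Complex I, 0.04, became 0.23 with median centring, -0.027 in the separate-channel fit and -0.049 to 0.069 on leaving out an array (negative without array 1 or 2). Complex IV, 0.06, became -0.11 with Cy3 throughout, -0.027 in the separate-channel fit and -0.079 to 0.084 on leaving out an array (negative without array 1 or 2). Complex V became 0.36 with median centring, -0.0085 with Cy3 throughout, 0.11 with flagged spots kept, 0.12 in the separate-channel fit and 0.13 to 0.15 on leaving out an array. Fewer genes are measured when an array is left out (8 to 12 of 15). The separate-channel fit holds only the 8 genes with 4 ratios, each with the same fitted ratio as reported. Its median and means of ratios thus differ only by the genes left out. Otherwise the causes were not tested. No paired analysis was possible because the arrays form 1 group of ratios, each of which already pairs 2 gilts.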
